A study of Mus musculus with 6 samples.

Results

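Ectonucleotidases, adenosine deaminase and the receptors for adenosine and extracellular nucleotides were followed in macrophages from malignant pleural effusion (MPE). The 10 genes were taken by symbol, with earlier results of these data known: Entpd1, Entpd3, Nt5e, Ada, Adora2a, Adora2b, P2rx4, P2rx7, P2ry2 and P2ry6. All 10 were found among the 23302 genes of the deposited table, and all 10 passed the filter on low values. Entpd3 passed it through the WT libraries alone. It is also a gene for which the study made PCR primers, so its call is not independent of the study's own choice of genes. The study's text and captions give no PCR result for Entpd3.

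MPE was produced by injecting MC38 cells, a mouse colon carcinoma line, into the pleural space of C57BL/6 mice. Fluid was taken on day 10, mononuclear cells were separated on a density gradient, and macrophages were pulled down with beads against F4/80. Poly(A) RNA of 3 libraries labelled WT and 3 labelled IL-10-/- was sequenced, and the comparison asks how loss of IL-10 alters macrophage transcripts. All 6 libraries therefore come from tumor-bearing mice, aged 6 to 8 weeks according to the methods, and macrophages of a healthy pleura were not analysed here. The IL-10-/- mice lack the cytokine in every cell, on a C57BL/6 background. They came from another supplier than the WT mice, so that genotype and supplier cannot be told apart. The labels number the samples but do not say whether a library is 1 mouse or several, and p-values measure only the spread between these libraries. The methods add that isolated cells were cultured in serum medium for later use, without saying whether the sequenced cells were among them.

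Dying and stressed cells release ATP, which acts on neighboring cells through the P2 receptors, a family of ATP-gated cation channels (the P2rx genes) and of G protein-coupled receptors (the P2ry genes). Ectonucleotidases on the cell surface trim ATP and ADP to AMP, and a further enzyme turns AMP into adenosine. Adenosine raises cAMP in macrophages through Adora2a and Adora2b, which is known to dampen inflammatory cytokine output, and adenosine deaminase ends the signal by making inosine.

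Levels are given as FPKM, the fragments of a gene per kilobase, relative to all fragments mapped in that library, and differences were tested with limma, a linear model fitted across all genes. The targeted gene was read first. Il10 held 6.43, 33.3 and 7.33 FPKM in WT and 59.2, 62.0 and 42.4 FPKM in the IL-10-/- labelled libraries (log2 fold change 2.09, limma adjusted p = 0.14). When WT replicate 2 was left out, Il10 was called higher at 2.80 on the log2 scale (limma adjusted p = 0.0049, with a range of 0.0049 to 0.43 over the alternative settings). Its transcript is thus not lost with the label, and a gene value does not show which exons the reads came from, so all directions here are those of the labels. Il10 lies on chromosome 1, and none of the 10 genes does. WT replicate 1 and the replicate 1 labelled IL-10-/- had Y-linked sums of 0 and 0.0343 FPKM with Xist at 52.3 and 25.0 FPKM, whereas the other 4 had Y-linked sums of 92.3 to 107.0 FPKM. Macrophage markers were present in all 6 libraries, among them Adgre1, which encodes F4/80. The 9 of them summed to 7436.7 to 9302.5 FPKM in WT and 10642.6 to 13333.2 FPKM in the IL-10-/- labelled libraries. Without Lyz2 the other 8 summed to 3030.2 to 4149.8 FPKM and 3549.2 to 4080.8 FPKM, which overlap. Of the 9, limma called 0, while 2 had an unadjusted p under 0.05 (10.8% of all genes tested), with a median of 0.12 on the log2 scale. The 6 epithelial markers summed to 4.56 to 11.7 FPKM over the 6 libraries, with Cdh1 reaching 4.85, Krt18 4.71 and Krt8 3.76 FPKM, whereas Epcam was at most 0.591 FPKM and Krt20 at most 0.0207 FPKM. The part of tumor transcripts in the values of the 10 genes was not tested. The total FPKM ran from 885310 to 1125015 per library, and read totals are unknown.

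Among the 10 genes, only Entpd3 differed between the groups past the test, and it was lower in the IL-10-/- labelled libraries. Tests were made with limma on log2(FPKM + 1). A gene was called at an adjusted p under 0.05 over the 11838 genes tested. Of the 10 genes 0 were called higher and 1 lower, against 1.09% of all genes tested that were called in either direction and 0.482% that were called lower. The 1 called gene, Entpd3, passed the filter on low values through the WT libraries alone. The difference was above 0 for 4 genes and below 0 for 6, with a median of -0.28 on the log2 scale against 0.00 for all genes tested. In 2 of the 10 genes, Entpd3 and P2ry2, the groups did not overlap, both with the IL-10-/- labelled libraries below the WT libraries. Groups did not overlap for 15.4% of all genes tested, and 7.59% lay in that direction. The same 2 genes had an unadjusted p under 0.05, as did 10.8% of all genes tested. Fold changes on this scale understate the change of genes with low FPKM.

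**Figure D1:**
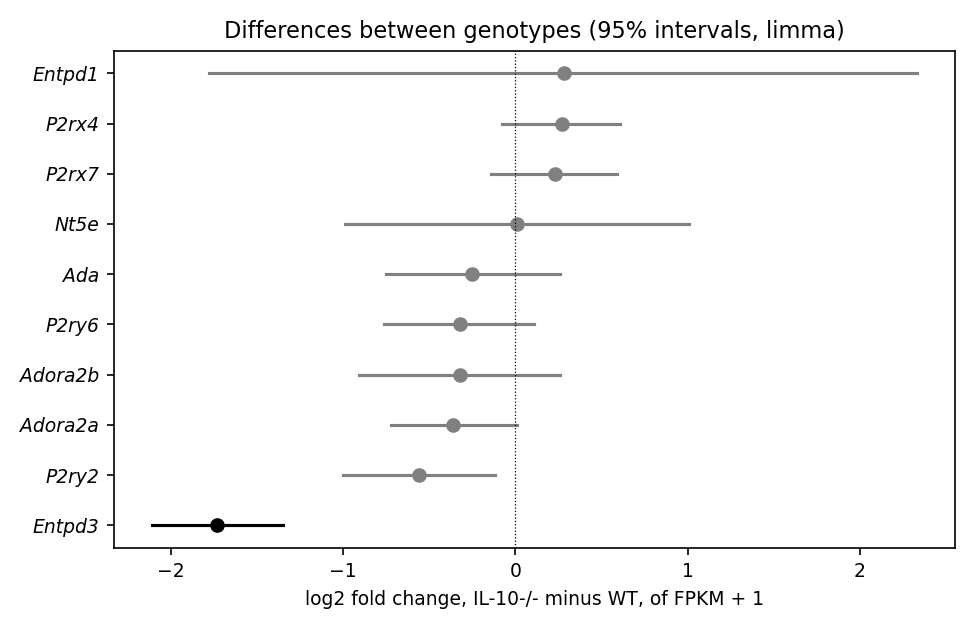
Difference between the IL-10-/- labelled libraries and WT for each gene, as log2 fold change of FPKM + 1 on the horizontal axis, with points for the limma estimate and lines for its 95% interval. Only Entpd3, in black at -1.73, was called, and the interval of Entpd1 ran from -1.78 to 2.33.

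The genes spanned a wide range of levels. By mean FPKM over the 6 libraries, Entpd1 stood highest at 332.3, at percentile 95.8 of the genes tested. It was followed by P2rx4 with 53.3 FPKM, P2ry6 with 39.3 FPKM and Adora2b with 23.3 FPKM. Nt5e, P2rx7 and P2ry2 lay close together at 10.3, 9.33 and 8.98 FPKM, and their order was not stable: Nt5e exceeded P2rx7 in 3 of 6 libraries, as did P2rx7 over P2ry2. Adora2a (6.88 FPKM), Ada (4.97 FPKM) and Entpd3 (2.25 FPKM, percentile 14.1) were the lowest. Every other neighboring pair kept its order in 6 of 6 libraries, although P2ry2 and Adora2a both rounded to 5.33 FPKM in the replicate 3 labelled IL-10-/-.

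**Figure D2:**
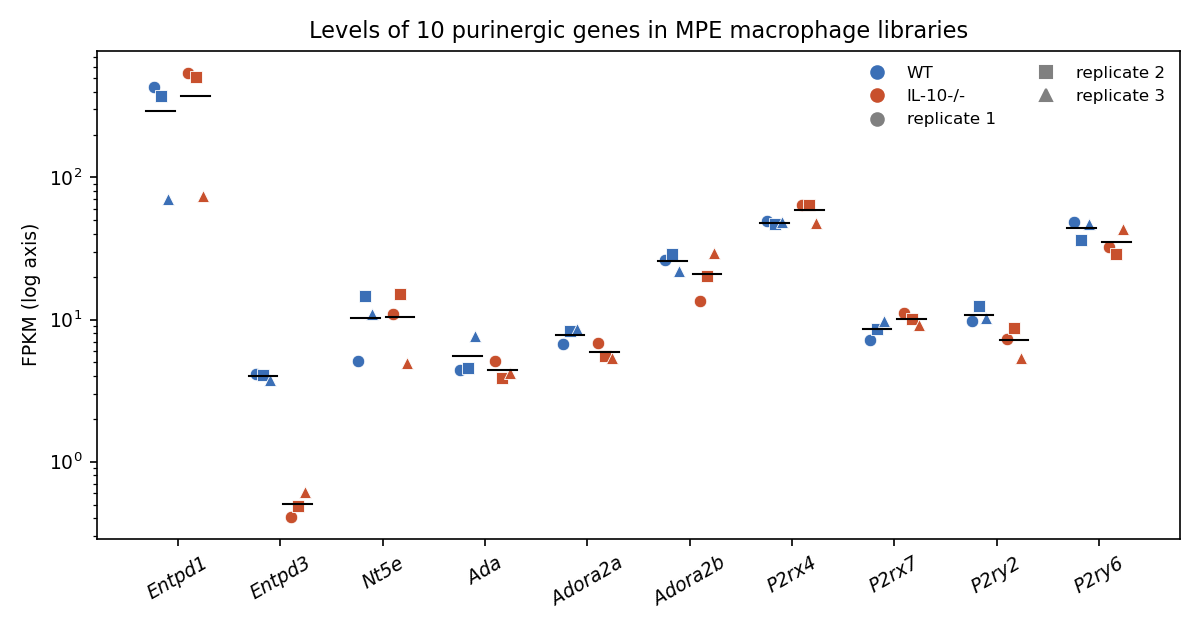
FPKM of the 10 genes on a log axis, with 1 point per library (blue for WT, orange for IL-10-/-, marker shape for the replicate number) and a black line at each group mean. Entpd3 is the gene whose groups lie farthest apart, while Entpd1 spreads from 70.1 to 430.2 FPKM in WT and from 73.5 to 542.1 FPKM in IL-10-/-.

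Entpd3 encodes NTPDase3, a membrane enzyme that hydrolyzes ATP and ADP outside the cell. It lies on chromosome 9 of GRCm38 from 120539818 to 120568318 on the plus strand, with 11 exons in its longest coding transcript and no annotated gene overlapping it. WT replicates 1, 2 and 3 held 4.17, 4.06 and 3.74 FPKM, and the IL-10-/- labelled libraries held 0.411, 0.488 and 0.615 FPKM. The highest of the latter was thus far below the lowest WT library, and the spread within each group was small. The means were 3.99 ± 0.225 FPKM (SD, n = 3) and 0.505 ± 0.103 FPKM (SD, n = 3), a ratio of 7.91 in favor of WT. Entpd3 fell by 1.73 on the log2(FPKM + 1) scale (SE, the standard error, 0.16, 95% interval -2.11 to -1.35, limma adjusted p = 0.0035). It had the 17th smallest p of the 11838 genes, having passed the filter through the WT libraries alone. With no filter on low values, its limma adjusted p was 0.029. The exact two-sided permutation test gave p = 0.1, the smallest that 3 against 3 libraries allow. The call was kept when any 1 library was left out, with limma's adjusted p at 0.0081 to 0.026. With the 4 libraries that hold Y-linked transcripts alone, the log2 fold change was -1.66 and limma's adjusted p 0.051, the highest over the alternative settings, whose lowest was 0.00095.

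The promoter of Entpd3 is shown because it belongs to the only gene called. It holds the 250 bases before the start in RefSeq (GRCm38.p6, chr9:120539568-120539817, plus strand), 5′ to 3′. The capitals mark CACGTG, in which the hypoxia response element core (ACGTG, or CACGT on the other strand) reads on both strands.
Entpd3: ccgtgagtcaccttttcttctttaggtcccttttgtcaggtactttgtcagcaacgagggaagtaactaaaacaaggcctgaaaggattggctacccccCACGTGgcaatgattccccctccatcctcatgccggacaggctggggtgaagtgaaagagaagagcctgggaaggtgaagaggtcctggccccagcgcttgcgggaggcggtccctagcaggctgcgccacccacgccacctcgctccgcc
This core was searched on both strands and occurs in 16.6% of the 32851 promoters of the table, each over the same 250 bases. The letters of the STAT motif (TTCNNNGAA), of the cAMP response element (TGACGTCA) and of the GC box (GGGCGG, or CCGCCC on the other strand) are not in this window. They occur in 7.02%, 1.55% and 32.7% of promoters.

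Markers of other blood cells differed between the groups in both directions. Summed over 10 neutrophil markers, the WT libraries held 2717.2, 4452.7 and 3390.1 FPKM and the IL-10-/- labelled libraries held 837.5, 441.4 and 1132.8 FPKM. Of the 10 differences, 8 were below 0 and 2 above, and 5 of the 10 were called lower. S100a8 and S100a9 made up most of the sum in every library, at 1072.3 and 1251.7 FPKM in WT replicate 1. S100A9 is also the gene that the study reported as downregulated in IL-10-/- MPE macrophages. Ly6g, the marker that defines neutrophils, was low in both groups, at 1.38 to 3.24 FPKM in WT libraries and 0.664 to 0.802 FPKM in the others. The sum of 6 platelet markers was 2594.4 to 3299.5 FPKM in WT libraries and 482.3 to 935.0 FPKM in the IL-10-/- labelled libraries. Pf4 and Ppbp made up nearly all of it. They were the 2 tested, and both were called lower. Gp9, Itga2b, Gp1bb and Treml1 were at most 2.62 FPKM in any library. The 8 B cell markers summed to 93.3 to 111.9 FPKM and 41.0 to 81.8 FPKM, with 8 of 8 differences below 0 and 5 at an unadjusted p under 0.05, but 0 called by limma. T cell markers lay the other way, at 49.8 to 72.9 FPKM and 66.8 to 141.6 FPKM, with 8 of 9 differences above 0 and 4 at an unadjusted p under 0.05, and 0 called by limma. The 6 monocyte markers summed to 4743.6 to 6536.1 FPKM in WT and 8089.8 to 12029.3 FPKM in the IL-10-/- labelled libraries, with 6 of 6 differences above 0 and 1 called higher. NK cell and dendritic cell markers had 5 of 5 and 7 of 7 differences below 0, with 1 and 3 at an unadjusted p under 0.05 and 0 called by limma. Over all genes tested, 10.8% had an unadjusted p under 0.05, 0.482% were called lower and 0.608% were called higher by limma. The part of these other cells in the difference of Entpd3 was not tested. The methods report high macrophage purity by flow cytometry, without naming the sequenced libraries. In bulk RNA, fewer cells of a type and less RNA per cell cannot be told apart.

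Entpd1 encodes CD39, the main surface enzyme that degrades ATP and ADP on leukocytes, and its level differed more within the groups than between them. Replicates 1, 2 and 3 held 430.2, 374.5 and 70.1 FPKM in WT and 542.1, 503.5 and 73.5 FPKM among the IL-10-/- labelled libraries. Both libraries numbered 3 were low and the other 4 were high, with a ratio of 7.73 between the highest and the lowest library, so that the groups overlapped. The group means were 291.6 ± 193.8 FPKM and 373.0 ± 260.1 FPKM (SD, n = 3 each), and the log2 fold change was 0.28 (SE 0.89, limma adjusted p = 0.96). The interval of -1.78 to 2.33 leaves room for a several-fold difference in either direction.

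The drop of Entpd1 in the libraries numbered 3 was among the sharpest of the data set for that pair of libraries. The higher of them lay 2.33 log2 units below the lowest of the other 4 libraries, the 2nd largest such gap of 11838 genes, of which 604 had any gap. No other of the 10 genes had one. The pair holds the lowest values of Entpd1 itself, so its high rank is partly built in and is a description only. The genes ranked after Entpd1, named here after their values were seen, were Gm2007 with a gap of 1.77 and Vps45 with 1.67 log2 units. Without both libraries numbered 3, the log2 fold change of Entpd1 was 0.38 (SE 0.21, limma adjusted p = 0.59).

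Entpd1 lies on chromosome 19 from 40612366 to 40741602 on the plus strand, and the annotation gives it 11 transcripts, 4 of them coding. The longest coding one has 10 exons and 4221 bases. The processed pseudogenes Gm8783 and Gm16027 lie within it on the same strand. Gm8783 held 123.4, 132.7 and 94.0 FPKM in WT and 80.7, 95.9 and 80.4 FPKM in the IL-10-/- labelled libraries, which is not the pattern of its host. Gm16027 was at 0 in 5 libraries and at 0.208 FPKM in the other. The values are per gene, so a shift between transcripts or between Entpd1 and sequences that share its reads was not tested.

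RefSeq gives Entpd1 a pair of start sites, shown because transcripts from either count toward the same gene value. The 250 bases before each (GRCm38.p6, plus strand, chr19:40612116-40612365 for the upstream start and chr19:40659520-40659769 for the downstream start) hold none of the 4 motifs and are therefore in lower case throughout.
Entpd1 upstream start: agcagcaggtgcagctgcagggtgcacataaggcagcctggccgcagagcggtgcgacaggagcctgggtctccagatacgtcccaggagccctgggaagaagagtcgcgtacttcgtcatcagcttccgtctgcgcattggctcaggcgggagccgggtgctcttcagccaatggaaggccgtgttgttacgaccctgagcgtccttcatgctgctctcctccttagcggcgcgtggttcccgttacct
Entpd1 downstream start: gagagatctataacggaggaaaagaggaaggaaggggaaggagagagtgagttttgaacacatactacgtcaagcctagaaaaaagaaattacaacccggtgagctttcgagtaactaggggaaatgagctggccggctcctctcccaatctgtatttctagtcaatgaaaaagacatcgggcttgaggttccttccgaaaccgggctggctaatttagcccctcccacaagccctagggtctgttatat

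Nt5e encodes CD73, which makes adenosine from AMP, and its mean was nearly equal in the 2 groups while its libraries ranged over 3.09 times. WT replicates 1, 2 and 3 held 5.07, 14.6 and 10.9 FPKM and the IL-10-/- labelled libraries held 11.0, 15.1 and 4.91 FPKM. WT replicate 1 and the replicate 3 labelled IL-10-/- were low, and the other 4 libraries were high in both groups. The means were 10.2 ± 4.82 FPKM and 10.4 ± 5.15 FPKM (SD, n = 3 each). The log2 fold change was 0.01 (SE 0.43, 95% interval -0.99 to 1.01, limma adjusted p = 1.0). The gene lies on chromosome 9 from 88327197 to 88372092 on the plus strand.

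The order of the 6 libraries by Nt5e was that of the summed markers of resident serous cavity macrophages, the large macrophages of the unstimulated pleura and peritoneum. Their 8 markers, among them the transcription factor Gata6, summed to 387.8, 1397.9 and 989.5 FPKM in WT and to 1099.8, 1722.3 and 304.2 FPKM in the IL-10-/- labelled libraries. Prg4 and Alox15 made up most of this sum in every library. All 6 libraries took the same place in both orders, and 7 of the 8 markers were lower in both libraries with low Nt5e than in the other 4. The full order rests on close Nt5e values, at 4.91 and 5.07, 10.9 and 11.0, and 14.6 and 15.1 FPKM. Among single markers only Prg4 and Selp kept it. Gata6 did not, at 5.36 FPKM in the replicate 1 labelled IL-10-/- and 6.12 FPKM in WT replicate 3. Of the general macrophage markers, Adgre1 was also lowest in WT replicate 1 (73.0 FPKM) and the replicate 3 labelled IL-10-/- (65.2 FPKM). The other 4 libraries held 106.9 to 227.6 FPKM. C1qa was lowest in that pair too, by a small margin, and the rest of that list was not. Nt5e lay 0.97 log2 units lower in that pair than in the lowest of the other 4, a gap with rank 18 of 11838 genes, of which 1222 had any gap. None of the other 9 genes had one. That pair holds the lowest values of Nt5e itself, so the high rank of Nt5e is partly built in. Enpp5, a surface nucleotide pyrophosphatase family member named here after its values were seen, had a gap of 1.24 log2 units. The link is a description over 6 libraries, and the part of these cells in the level of Nt5e was not tested.

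**Figure D3:**
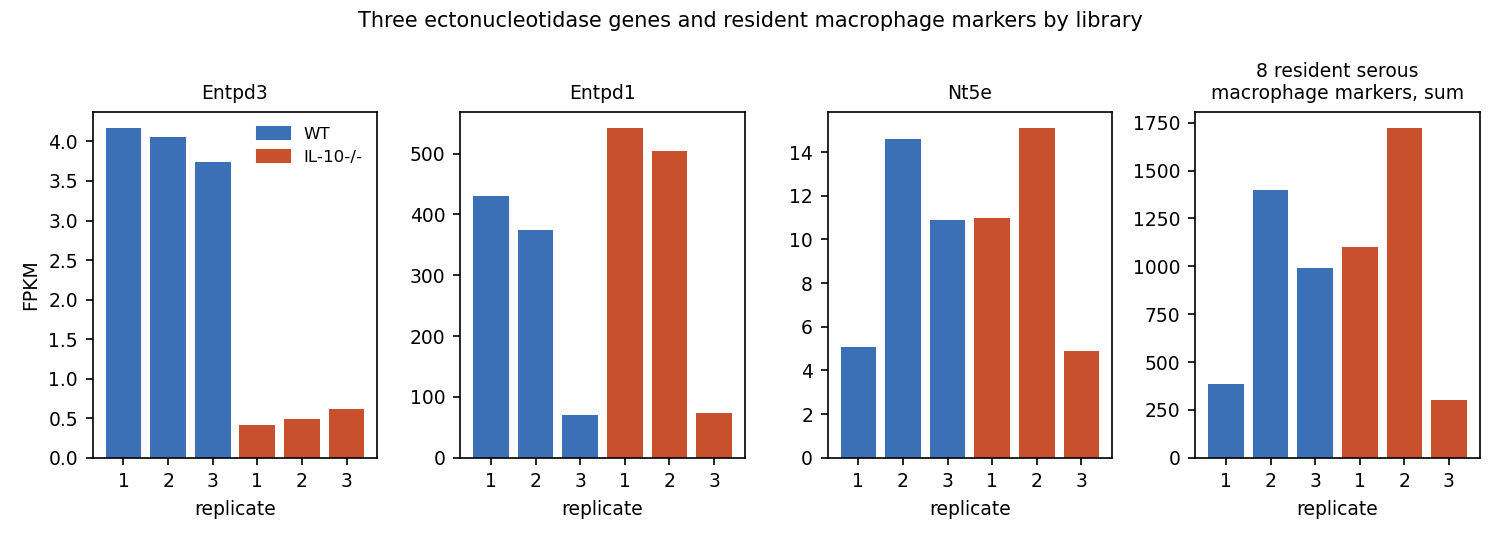
FPKM by library (replicate number on the horizontal axis, blue bars for WT, orange bars for IL-10-/-) of Entpd3, Entpd1, Nt5e and the summed 8 markers of resident serous cavity macrophages. Entpd3 separates the groups, Entpd1 is low in both libraries numbered 3, and Nt5e takes the 6 libraries in the same order as the summed resident markers.

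Ada encodes adenosine deaminase, which converts adenosine to inosine inside and outside cells. WT libraries held 4.38, 4.57 and 7.66 FPKM and the IL-10-/- labelled libraries held 5.14, 3.87 and 4.19 FPKM. WT replicate 3 stood above the other 5 libraries, which overlapped between the groups. On the log2 scale the difference was -0.25 (SE 0.22, limma adjusted p = 0.80), and without both libraries numbered 3 it was 0.00.

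The promoter of Ada is shown because it is the only one of the 10 genes' promoters in the table with a STAT motif, the element that IL-10 signaling reaches through STAT3. The capitals in the 250 bases before its start (chr2:163750240-163750489, minus strand, GRCm38.p6) mark TTCCGGGAA, a match to TTCNNNGAA, and a GC box.
Ada: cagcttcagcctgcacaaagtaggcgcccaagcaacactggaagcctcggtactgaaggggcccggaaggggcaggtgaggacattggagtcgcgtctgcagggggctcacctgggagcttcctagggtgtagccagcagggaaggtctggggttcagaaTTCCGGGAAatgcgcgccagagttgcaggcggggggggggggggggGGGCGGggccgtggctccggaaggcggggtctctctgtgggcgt
A match is a description of letters and not a site of binding, and STAT3 binding was not measured. In all, the table held 11 promoters for 8 of the 10 genes, with none for Adora2a and P2ry6.

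Both Gs-coupled adenosine receptors were measured in every library, and neither was called. Adora2a, the receptor with high affinity for adenosine, held 6.75, 8.25 and 8.54 FPKM in WT and 6.82, 5.58 and 5.33 FPKM in the IL-10-/- labelled libraries. Only WT replicate 1 lay within the range of the other group, just below the highest library there. The means were 7.84 ± 0.962 FPKM and 5.91 ± 0.802 FPKM (SD, n = 3 each). Its log2 fold change was -0.36 (SE 0.16, 95% interval -0.72 to 0.01, limma adjusted p = 0.48).

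Adora2b, the receptor with low affinity that responds where adenosine is abundant, was present at higher FPKM than Adora2a in every library. It held 26.1, 28.8 and 21.8 FPKM in WT and 13.6, 20.2 and 29.3 FPKM in the IL-10-/- labelled libraries. The lowest and the highest library both carried the IL-10-/- label, and the WT libraries lay between them. The log2 fold change was -0.32 (SE 0.26, 95% interval -0.91 to 0.26, limma adjusted p = 0.76).

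Of the ATP-gated channels, P2rx4 was the more abundant. It held 49.3, 46.8 and 48.2 FPKM in WT and 64.1, 63.5 and 48.1 FPKM in the IL-10-/- labelled libraries. The replicates 1 and 2 with the IL-10-/- label stood above all WT libraries, whereas the 3rd lay among them. On the log2 scale the difference was 0.27 (SE 0.15, 95% interval -0.08 to 0.61, limma adjusted p = 0.63).

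P2rx7, which opens only at high ATP and is known for triggering the NLRP3 inflammasome, held 7.15, 8.63 and 9.83 FPKM in WT and 11.1, 10.1 and 9.12 FPKM in the IL-10-/- labelled libraries. WT replicate 3 exceeded the lowest library of the other group, so that the groups overlapped. Its log2 fold change was 0.23 (SE 0.16, 95% interval -0.14 to 0.59, limma adjusted p = 0.73). P2rx7 and P2rx4 are neighbors on the plus strand of chromosome 5, 16.1 kb apart, at 122643911 to 122691432 and 122707544 to 122729738.

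Both G protein-coupled receptors had lower means in the IL-10-/- labelled libraries, and neither was called. P2ry2, a receptor for ATP and UTP that guides phagocytes to dying cells, held 9.81, 12.5 and 10.2 FPKM in WT and 7.33, 8.69 and 5.33 FPKM in the IL-10-/- labelled libraries. Every WT library lay above every library of the other group, with the nearest values at 9.81 and 8.69 FPKM. The means were 10.8 ± 1.44 FPKM and 7.12 ± 1.69 FPKM (SD, n = 3 each), and the log2 fold change was -0.56 (SE 0.19, 95% interval -1.0 to -0.12). The unadjusted p was 0.019 and the adjusted p 0.30 from limma.

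P2ry6, a receptor for UDP that promotes phagocytosis, held 48.3, 36.2 and 46.6 FPKM in WT and 32.2, 29.1 and 43.5 FPKM in the IL-10-/- labelled libraries. The groups overlapped through WT replicate 2 and the replicate 3 labelled IL-10-/-. The log2 fold change was -0.32 (SE 0.19, 95% interval -0.76 to 0.11, limma adjusted p = 0.65). P2ry6 and P2ry2 are neighbors on the minus strand of chromosome 7, 21.9 kb apart, at 100937630 to 100974649 and 100996568 to 101012866.

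Ratios within a library, taken on FPKM + 1, change little with how that library was scaled, and 6 of them were compared with exact two-sided permutation tests. The largest difference was that of Entpd1 over Entpd3, at log2 ratios of 6.38, 6.21 and 3.91 in WT and 8.59, 8.41 and 5.53 in the IL-10-/- labelled libraries. The ratio was higher by 2.01 on the log2 scale with the IL-10-/- label, but replicate 3 of that group lay below WT replicates 1 and 2 (exact permutation p = 0.3, adjusted p = 0.9 over 6 ratios). This difference was 1.21 when WT replicate 3 was left out, 3.0 when the replicate 3 labelled IL-10-/- was, and 3.05 with a pseudocount of 0.1. The ratios of Entpd1 over Nt5e (0.27), Ada over Nt5e (-0.25), Adora2b over Adora2a (0.03), P2rx4 over P2rx7 (0.04) and P2ry6 over P2ry2 (0.24) differed by less on the log2 scale, each with an adjusted exact permutation p of 0.9. At 3 against 3 none of these tests could have gone below 0.1.

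The rest of the pathway was read from 8 lists of 86 genes, of which 82 were in the table and 73 were tested. Of the 73 genes, 0 were called higher and 2 lower with limma, while 7 were higher and 7 lower at an unadjusted p under 0.05. Over all genes tested, 1.09% were called and 10.8% had an unadjusted p under 0.05. The median log2 fold change of the 73 was 0.02. With 1 library left out, the count of calls was 0 to 1, and with array weights 3 were called higher and 4 lower.

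Among the other surface enzymes, 1 of 6 tested fell and the median was 0.05. Enpp1 makes AMP and pyrophosphate from ATP and also degrades the immune messenger cGAMP. It held 5.01, 7.63 and 7.22 FPKM in WT and 2.86, 2.64 and 2.52 FPKM in the IL-10-/- labelled libraries. It fell by 1.04 on the log2 scale (SE 0.18, limma adjusted p = 0.043), and this call was kept in 7 of 18 alternative settings. Leaving out any 1 library other than WT replicate 1 ended it, with limma's adjusted p at 0.083 to 0.20. Bst1, which consumes NAD at the surface, had a log2 fold change of 0.25 (limma adjusted p = 0.64). Entpd2 was at most 0.206 FPKM and Alpl at most 0.0305 FPKM. Of the 4 intracellular relatives, 0 were called by limma and 0 had an unadjusted p under 0.05, with Entpd4 at 0.36 and Entpd7 at -0.45 on the log2 scale (limma adjusted p = 0.47 and 0.55).

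Among 16 tested genes of purine salvage and nucleoside transport, 1 fell and the median was 0.17. Nt5c2, a cytosolic nucleotidase that prefers IMP and GMP, held 24.7, 22.2 and 20.6 FPKM in WT and 12.7, 12.3 and 12.8 FPKM in the IL-10-/- labelled libraries. It fell by 0.79 on the log2 scale (SE 0.13, limma adjusted p = 0.036), kept in 5 of 18 alternative settings and lost when any 1 library was left out (limma adjusted p from 0.053 to 0.19). Pnp, which follows Ada by splitting inosine, held 362.1, 460.7 and 388.6 FPKM in WT and 582.4, 729.7 and 616.9 FPKM in the IL-10-/- labelled libraries. These groups did not overlap, as in 15.4% of all genes tested, yet the log2 fold change of 0.67 did not pass the test (SE 0.17, limma adjusted p = 0.14).

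Of 12 tested genes for other adenosine receptors and cAMP signaling, Adora3 among them, 0 were called by limma and 0 had an unadjusted p under 0.05, with a median of -0.12. Adcy7, an adenylyl cyclase, stood at 0.33 and Pde4d, a cAMP phosphodiesterase, at -0.41 on the log2 scale (limma adjusted p = 0.54 and 0.59). Adora1 was at most 0.023 FPKM. Of 10 cAMP-responsive genes, 9 were below 0, 4 of them with an unadjusted p under 0.05 (10.8% of all genes tested), the median was -0.49 and 0 were called by limma. The growth factor gene Areg held 8.36, 5.20 and 8.90 FPKM in WT and 3.21, 2.28 and 3.65 FPKM in the IL-10-/- labelled libraries, and its log2 fold change was -1.05 (SE 0.23, limma adjusted p = 0.093). Vegfa, which makes vessels grow and leak, had a log2 fold change of -0.88 (SE 0.31, limma adjusted p = 0.32). These genes also answer other signals than cAMP.

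Of the other P2 receptors, 5 were tested, 0 were called by limma and 0 had an unadjusted p under 0.05, with P2ry1 at 0.50 and P2ry13 at 0.18 on the log2 scale (limma adjusted p = 0.55 and 0.83). Their median was 0.18. Among 8 tested genes for nucleotide release, 0 were called by limma and 1 in each direction had an unadjusted p under 0.05 (10.8% of all genes tested), with a median of 0.07. These were the ATP-releasing channel Panx1 (5.33, 4.44 and 4.99 FPKM in WT, 8.07, 7.80 and 6.26 FPKM in the IL-10-/- labelled libraries) and the connexin gene Gja1 (25.2, 13.4 and 14.1 FPKM against 8.76, 4.14 and 7.85 FPKM). Their log2 fold changes were 0.50 and -1.23 (limma adjusted p = 0.25 and 0.14), and neither pair of groups overlapped, as in 15.4% of all genes tested.

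Downstream of P2rx7, 12 genes were tested, 8 above 0 and 4 below, with a median of 0.28. By limma 0 were called, and 2 had an unadjusted p under 0.05 (10.8% of all genes tested), both higher. Casp1, the protease that matures IL-1β and IL-18, held 49.9, 65.3 and 53.9 FPKM in WT and 115.1, 109.5 and 89.6 FPKM in the IL-10-/- labelled libraries. Its groups did not overlap, as in 15.4% of all genes tested. Its log2 fold change of 0.88 missed the threshold (SE 0.16, limma adjusted p = 0.051), with a range of 0.011 to 0.24 over the alternative settings. Il18 had a log2 fold change of 0.57 (SE 0.17, limma adjusted p = 0.23).

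**Figure D4:**
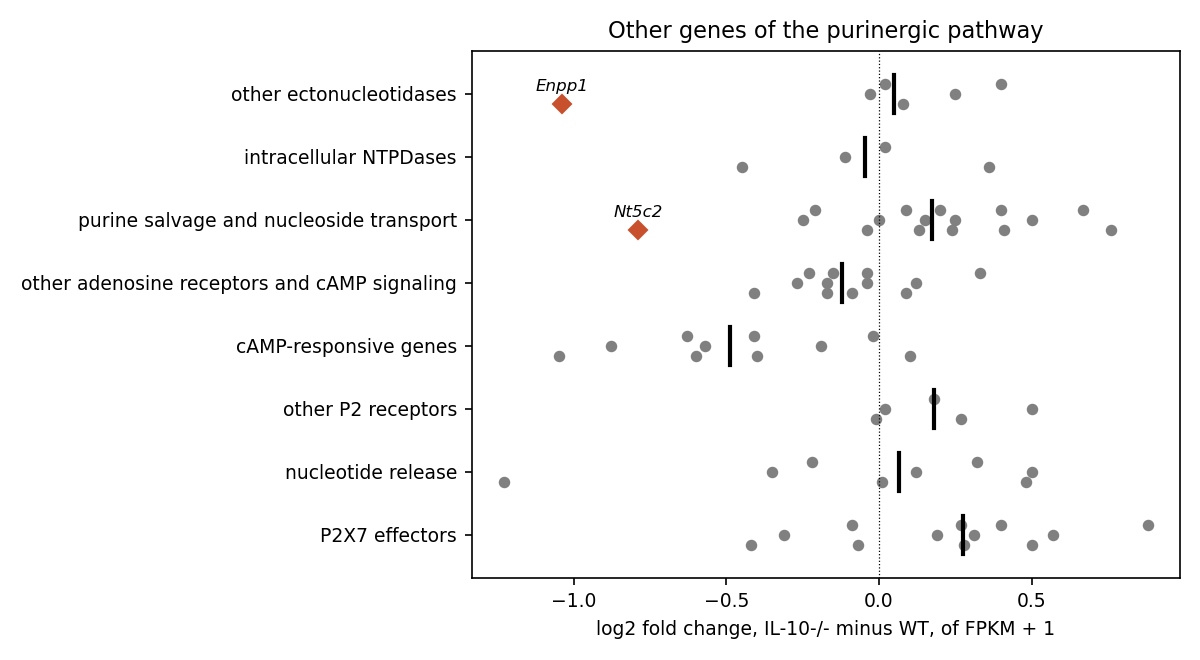
Log2 fold change of FPKM + 1 between the IL-10-/- labelled libraries and WT for the 73 tested genes of 8 lists, with 1 point per gene, black bars at each list's median and orange diamonds for the called genes. Enpp1 and Nt5c2 are the 2 called genes, and the list medians run from -0.49 to 0.28.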

How the data were processed

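The authors deposited 1 table of gene FPKM values for 6 libraries, made from poly(A) RNA with a NEBNext Ultra kit and paired-end 150 base reads. The submitters' processing notes name GRCm38. The aligner, counter, annotation release and strand setting are not given in sources used here, so overlapping genes and near-identical copies may share reads. The authors' fold change, p-value, q-value and mark columns hold their own comparison and were not used.

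Libraries were grouped by the genotype in their labels. Genes that reached 1 FPKM in 3 or more of the 6 libraries were tested on log2(FPKM + 1) with limma 3.58.1 in R 4.3.3, with a variance trend, two-sided, and Benjamini-Hochberg adjustment over 11838 genes. Single values and ratios were compared with exact permutation tests. FPKM is not a count, so no count test was run. Read totals are unknown, and precision rests on the spread between libraries. The worth of 1 fragment, read from steps among low values, ranged from 0.86 to 1.259 times that of WT replicate 2. These steps are approximate, and no counts were recovered.

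The 10 genes and all lists were chosen with earlier results of these data known. Named from each list were the genes called and the 2 with the smallest p, and any other gene is named as a choice made after seeing values. The symbol Fam26b was matched to Calhm2. Gene models came from GENCODE mouse release M21, which holds 23136 of the 23302 identifiers, and promoters from RefSeq (GRCm38.p6). Alternatives were another pseudocount or filter, rescaling, quantile normalization, no variance trend, array weights, a Y-linked covariate, a replicate block and libraries left out. The code was tested on simulated data.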

Additional observations from a re-analysis of the deposited data

How the results depend on the processing

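The count of 1 called among the 10 genes was kept except with a filter at 5 FPKM, which removes Entpd3 from the test, and with the libraries that hold Y-linked transcripts only (both 0). Of the 73 list genes, 2 were called at first, 0 with FPKM rescaled to an equal sum, a Y-linked covariate, the Y-linked libraries only, no filter, the replicate block or without both libraries numbered 3, 7 with array weights (3 higher, 4 lower), 3 with the filter at 5 FPKM (1 higher, 2 lower), 3 without WT replicate 1 and the replicate 3 labelled IL-10-/- (2 higher, 1 lower), and 0 to 1 with 1 library left out. Over all genes the 129 calls became 482 with array weights, 53 with the Y-linked libraries only, 32 without a filter, 61 with the replicate block, 281 without WT replicate 1 and the replicate 3 labelled IL-10-/-, 47 without both libraries numbered 3, and 40 to 140 with 1 library left out (40 without WT replicate 3, 51 without WT replicate 2, and 50 and 57 without replicates 1 and 2 labelled IL-10-/-). The causes of these changes in the counts were not tested. The settings without both libraries numbered 3 and with the Y-linked libraries only were chosen after seeing the data.

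Directions turned only in values that were not called. With 1 library left out, the log2 fold change ran from -0.56 to 1.21 for Entpd1 and from -0.38 to 0.42 for Nt5e. Entpd1 was below 0 without WT replicate 3 (-0.56) and without replicates 1 and 2 labelled IL-10-/- (-0.22 and -0.17), Nt5e without WT replicate 1 (-0.38) and without the same 2 libraries (-0.09 and -0.31). The log2 ratio ran from 1.21 to 3.0 for Entpd1 over Entpd3, which did not turn, and from -0.66 to 1.12 for Entpd1 over Nt5e, -0.64 to 0.13 for Ada over Nt5e, -0.29 to 0.39 for Adora2b over Adora2a, -0.06 to 0.16 for P2rx4 over P2rx7 and -0.10 to 0.49 for P2ry6 over P2ry2. Nt5e was at -0.48 with the Y-linked libraries only and Ada at 0.00 without both libraries numbered 3.

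The labels do not say what a replicate number marks. The correlations of the deviations of same-numbered libraries were 0.09, 0.20 and 0.09. They were not all above 0.1, the limit set here, so the libraries were not treated as pairs. Between libraries of different numbers the correlations ran from -0.17 to 0.05, below each of those. Y-linked transcripts also go with the number, being near 0 in both libraries numbered 1. So does Entpd1, low in both libraries numbered 3, whose SE was 0.14 with a replicate block. With the replicate block, which cannot move the fold change in this balanced design (-1.73), Entpd3 had a limma adjusted p of 0.034. Library depth is unknown, so levels near 0, such as those of Entpd3 with the IL-10-/- label, carry an unknown counting error.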

Other observations

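Gm2007 shared the low level of Entpd1 in both libraries numbered 3, and its values were set beside those of Gm11007, a predicted gene of the same annotated span on chromosome 2, after they were seen. Gm2007 held 4862.5, 5528.7 and 1246.8 FPKM in WT replicates 1, 2 and 3 and 5421.4, 4249.8 and 880.5 FPKM in the IL-10-/- labelled libraries. Gm11007 held 0.884, 0.681 and 637.0 FPKM in WT and 1.15, 1.46 and 70.9 FPKM in the IL-10-/- labelled libraries. Both genes span 9883 bases.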
